A study of Caenorhabditis elegans with 24 samples.

Results

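Embryos of Caenorhabditis elegans at 180 min after the 4-cell stage were compared with embryos at 120 min by small RNA sequencing. The comparison took the 6 libraries that the labels place at these times, out of 24 libraries in the series: 3 labelled 180 min and 3 labelled 120 min. All came from the wild-type strain N2 with no treatment, each from 50 hand-staged embryos cut out of adults, so each library is a pool of whole embryos. In the labels, 3 libraries were collected at each of 8 times from 60 to 500 min. Nothing there says that the 3 samples of a time came from separate cultures. A p-value here sets a difference between times against the spread of samples within a time, estimated over all 24 libraries. That spread may be partly technical.

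MicroRNAs are short RNAs cut from hairpin precursors that lower the output of messenger RNAs carrying sites for their seed, the stretch near their 5′ end. Each hairpin can give a 5p and a 3p arm, and hairpins that share a seed form a family whose members act on overlapping targets. In the worm embryo the mir-35 and mir-51 families are known to be essential, and both sampled times fall in the phase of rapid cell division and gastrulation, before the body elongates.

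The deposited table holds raw read counts of 434 mature arms. The 180 min libraries held 302152, 103144 and 753471 reads and the 120 min libraries 290952, 130301 and 360692 reads. These are 1158767 reads at 180 min and 781945 at 120 min, so sums of reads are not on the same scale at the 2 times. Levels are in CPM, a library's reads scaled to a common total, and on a log2 scale the replicates within either stage correlated at 0.905 to 0.963. Reads were found for 210 arms in the 6 libraries. Of these, 87 were too rare to test, with a median of 3 reads over the 6 libraries, and untested arms took at most 0.0522% of the reads of any library. The test covered 128 arms, 5 of them without a read at either stage. Related arms of 1 family may take reads from each other where their sequences are almost the same. Values of single arms in the mir-58, mir-44, mir-35 and mir-51 families are therefore less certain. How reads that map more than once were treated is not given, so family sums may be affected too.

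Among markers of early embryos, the arms of mir-35 to mir-41 together took 1.77% to 4.64% of reads at 180 min and 4.52% to 7.63% at 120 min. MicroRNAs of larval and adult soma, which would come with maternal tissue, were rare at both times. The 12 arms of lin-4, let-7, mir-48, mir-84, mir-241 and mir-237 summed to 191 to 232 CPM (unscaled) at 180 min and 68.7 to 277 CPM at 120 min, and 6 of them, among these both arms of let-7 and of mir-84, had no read. The 6 arms of mir-240, mir-246 and mir-786, expressed in the mother's somatic gonad, summed to 43.0 to 116 CPM at 180 min and 0 to 182 CPM at 120 min. Neuronal mir-124 and lsy-6 together had 2 reads at 180 min and 3 at 120 min.

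At 180 min, 10 arms were higher and 2 were lower than at 120 min, 12 of the 128 tested (9.38%; edgeR quasi-likelihood test, Benjamini-Hochberg adjusted p under 0.05 over the 128). Arms of the mir-58 family and both arms of mir-228 made up 6 of the 10 rises. The 2 falls were miR-39-5p, from a hairpin of the mir-35 family, and miR-789-3p. At an unadjusted p under 0.05 there were 16 higher and 9 lower. The number of falls depended on scaling: with DESeq2 size factors 10 arms were higher and 9 lower, with total counts 10 and 4, and with no low-count filter 3 and 7. The same 12 arms were among those called under either other scaling. In all 12 the 3 libraries of each stage did not overlap in TMM-scaled CPM. They did not overlap as shares of reads either, which need no scaling factor. Of all 128 tested arms, 19 did not overlap in CPM (14.8%), 13 of them higher (10.2%) and 6 lower (4.69%). Full separation of 3 libraries from 3 has a two-sided p of 0.1 by an exact permutation test. It is therefore not evidence apart from the call. Without 120 min replicate 3 there were 5 rises and without 120 min replicate 2 there were 6. Without 180 min replicate 2 there was 1 fall, and without 120 min replicate 1 there were 3. Calls said here to be lost without a named library are those lost with the low-count filter and TMM factors of all libraries kept. When filter and factors were instead computed anew without each of the 6 libraries in turn, 8 of the 12 arms lost their call in at least 1 of 6 fits. The median log2 fold change of all tested arms was 0.13 with TMM, 0.00 with total counts and -0.18 with DESeq2 size factors. With TMM it was 0.24 when arms without a read at 1 or both stages were set to their bound or, with no bound, left out. Counts come from whole embryos, so more cells of a type and more of a miRNA per cell cannot be told apart.

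**Figure D1:**
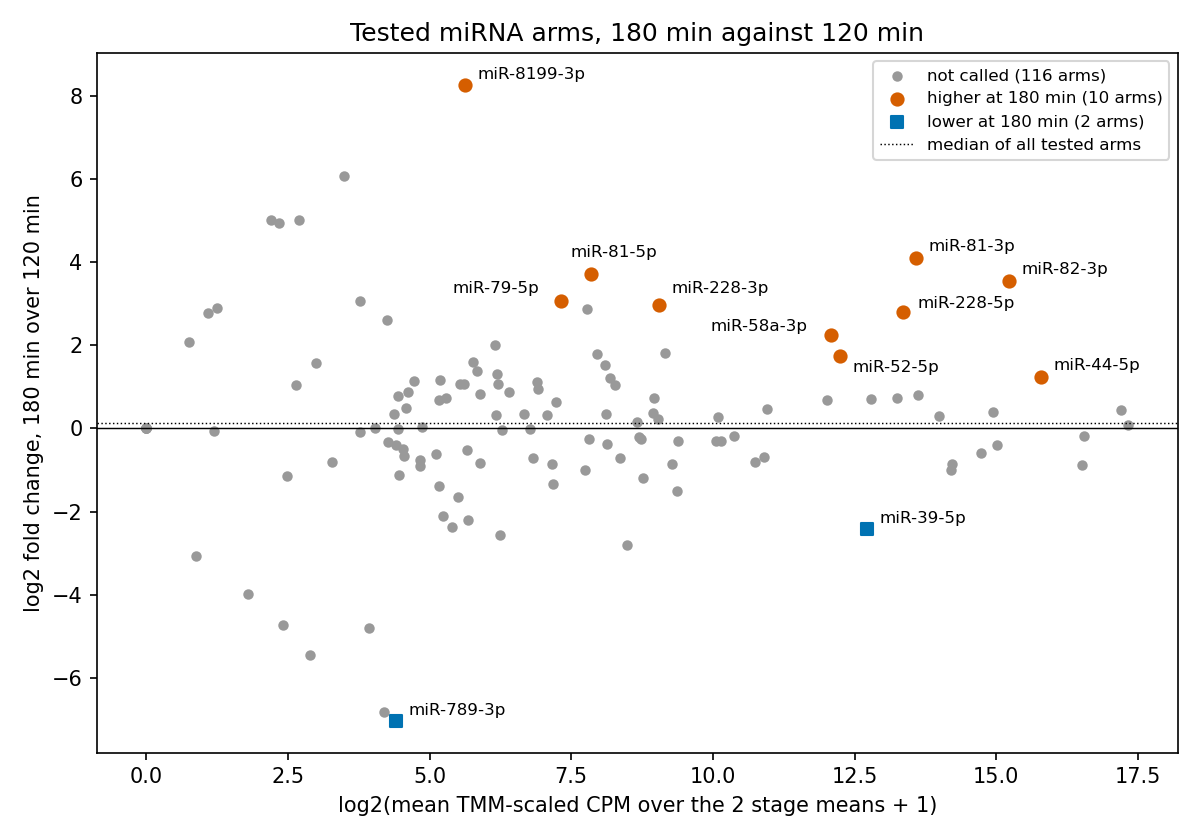
Fitted log2 fold change of 180 min over 120 min (vertical axis) against log2 of the mean level in TMM-scaled CPM plus 1 (horizontal axis) for the 128 tested arms. The 10 orange points are arms called higher at 180 min and the 2 blue squares arms called lower. Rises of mir-81, mir-82 and mir-228 arms stand at 2.80 to 4.11 across a wide range of levels, while the fitted values of miR-8199-3p and miR-789-3p rest on stages without a read.

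The mir-58 family is the worm's relative of insect bantam, abundant in later stages and known to restrain TGF-β signalling. miR-82-3p (mir-82, chromosome X, 2435258 to 2435354 of WBcel235, in an intron of gid-2) stood at 88361, 62706 and 59614 CPM in the 180 min libraries and at 8160, 4268 and 5463 CPM in the 120 min libraries. All 180 min libraries stood above all 120 min libraries, and the fitted rise was 3.56 ± 0.51 on the log2 scale (SE; edgeR adjusted p 6.83e-06). As a share of reads, miR-82-3p took 8.27% ± 2.42 at 180 min, against 0.770% ± 0.125 at 120 min (SD, n = 3 each).

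Its relative miR-81-3p comes from a hairpin close by on the other strand (mir-81, X, 2431072 to 2431179, in an intron of gid-2 on the opposite strand). It had 27389, 17162 and 25015 CPM at 180 min, against 809, 1509 and 1720 CPM at 120 min, with no overlap and a log2 fold change of 4.11 ± 0.68 (edgeR adjusted p 8.38e-05). miR-58a-3p (mir-58a, IV, 3233254 to 3233350, in an intron of Y67D8A.2) had 6835, 7651 and 7144 CPM at 180 min and 1791, 1148 and 1590 CPM at 120 min. Its 180 min libraries lay close together, and the log2 fold change was 2.25 ± 0.55 (edgeR adjusted p 0.00532; 0.0733 with no low-count filter, which ended the call).

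Of the minor arms of these hairpins, miR-81-5p passed the test and miR-82-5p and miR-58a-5p did not. miR-81-5p had 527, 286 and 464 CPM at 180 min and 0, 85.3 and 15.1 CPM at 120 min (log2 fold change 3.72 ± 1.00, edgeR adjusted p 0.0118). That call was lost without 120 min replicate 3 (0.0628) and with no low-count filter (0.0806), and in 4 of 6 fits computed anew (up to 0.197), and the log2 fold change was 5.59 if 120 min replicate 2 was left out and 3.13 if 120 min replicate 1 was. miR-82-5p had 221, 424 and 508 CPM at 180 min, against 51.9, 45.1 and 58.8 CPM at 120 min. Its libraries did not overlap, but it did not pass the test (log2 fold change 2.87 ± 1.05, edgeR adjusted p 0.0864).

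Of the 7 tested arms of the mir-58 family 4 rose and none fell, against 7.81% of all tested arms that rose. The family's median log2 fold change was 2.87, which is 2.75 above that of all arms. Besides miR-82-5p, the members not called were miR-58b-5p, which had 7 reads in the 180 min and 10 in the 120 min libraries, and miR-58a-5p (log2 fold change 0.70 ± 0.57, edgeR adjusted p 0.513). Reads of mir-80, the sister of mir-81 and mir-82, came to 0 at 180 min and 2 at 120 min over both arms. The family took 10.5%, 16.2% and 10.9% of reads at 180 min and 1.28%, 1.82% and 1.75% at 120 min, a 7.76-fold ratio of the means.

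mir-228, whose mature sequence is related to the miR-183 family of vertebrates and whose promoter is widely used to mark worm glia, lies outside protein-coding genes on chromosome IV (5562025 to 5562122). miR-228-5p had 27193, 8823 and 18736 CPM at 180 min and 3472, 2277 and 2123 CPM at 120 min. The lowest 180 min library was still above the highest 120 min library, and the arm rose by 2.80 ± 0.52 on the log2 scale (edgeR adjusted p 0.000299). miR-228-3p had 1410, 435 and 973 CPM at 180 min and 167, 100.3 and 94.1 CPM at 120 min, with a log2 fold change of 2.96 ± 0.59 (edgeR adjusted p 0.000518). Both arms held their calls without any 1 of the 6 libraries (edgeR adjusted p up to 0.00852 for either arm), as did miR-81-3p (up to 0.00216), miR-82-3p (up to 0.00072), miR-58a-3p (up to 0.05) and miR-789-3p (up to 0.0373). With filter and factors computed anew, both arms of mir-228, miR-81-3p and miR-82-3p again held their calls without any 1 library, while miR-58a-3p lost its call in 2 of 6 such fits (up to 0.106) and miR-789-3p in 1 (0.0547). The call of miR-228-3p was lost with no low-count filter (0.0549).

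**Figure D2:**
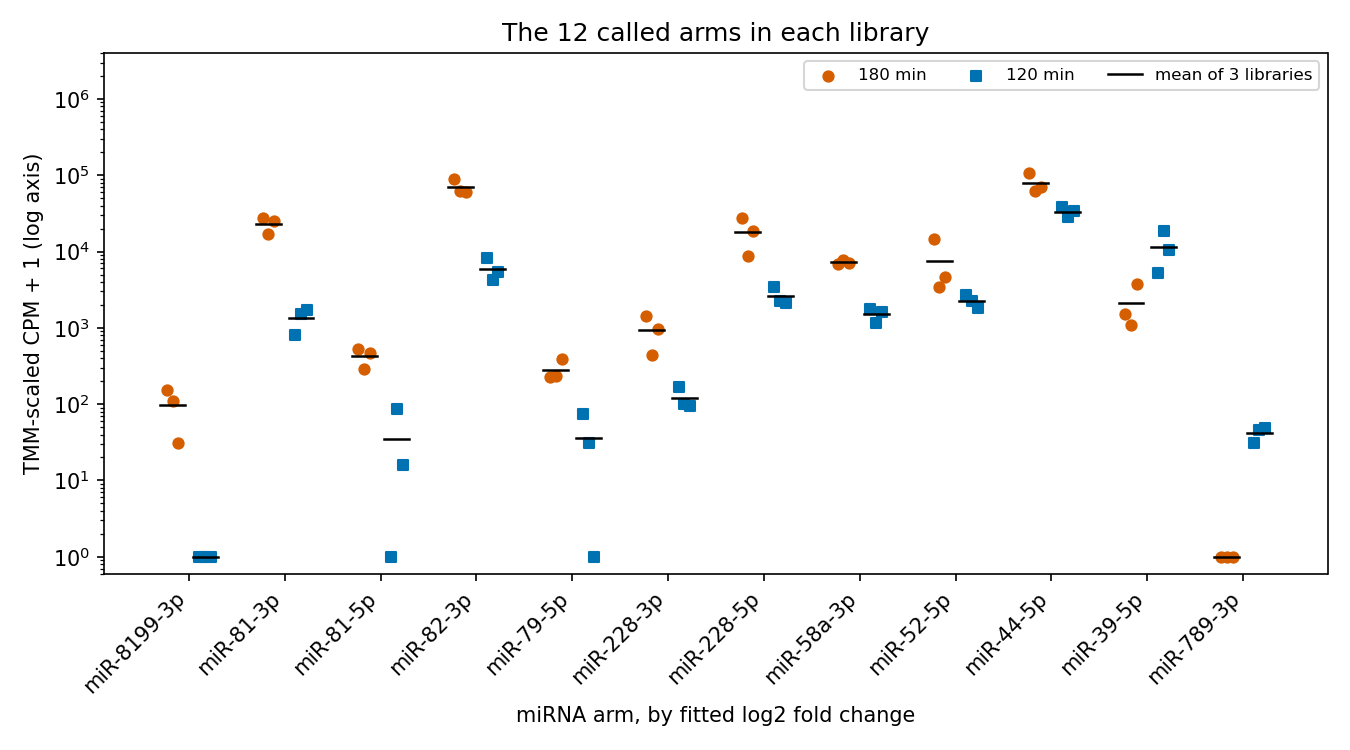
TMM-scaled CPM plus 1 (log axis) of the 12 called arms in each library, with 180 min as orange circles left of 120 min as blue squares and the mean of 3 libraries as a black line. The libraries of the stages do not overlap for any of the 12. Points at 1 are libraries without a read, as in all 3 libraries of 120 min for miR-8199-3p and of 180 min for miR-789-3p.

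The other 4 rises came from other families. miR-44-5p (mir-44, chromosome II, 11890023 to 11890118) is the arm with most reads in a family whose targets in the embryo are little known. It stood at 106639, 61358 and 69446 CPM at 180 min, against 37953, 28730 and 33557 CPM at 120 min. Its log2 fold change was 1.24 ± 0.35 (edgeR adjusted p 0.0134), and it took 9.05% ± 1.60 of reads at 180 min, against 4.48% ± 1.01 at 120 min (SD, n = 3 each). The call was lost without 180 min replicate 1, 120 min replicate 2 or 120 min replicate 3 (0.0503 to 0.0891), in 5 of 6 fits computed anew (up to 0.391), with no low-count filter (0.781) and in a fit of the 6 libraries alone (0.116). The other arm, miR-44-3p, had no read in any of the 24 libraries, against 476034 reads of miR-44-5p. How the table's reads were assigned to the 2 arms is not given in the sources used here, so the values may belong to the hairpin rather than to its 5p arm. This assignment is not given for any hairpin, so other arm-level values rest on it as well. miR-45-3p, from a separate family hairpin, had 850, 545 and 465 CPM at 180 min and 419, 336 and 366 CPM at 120 min. These did not overlap, but the arm did not pass the test (edgeR adjusted p 0.513). miR-61-3p, also of this family, had a log2 fold change of -0.39 (edgeR adjusted p 0.591). Of the family's 4 tested arms only miR-44-5p passed the test, and their median log2 fold change was 0.17.

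miR-52-5p (mir-52, IV, 14034008 to 14034107) belongs to the mir-51 family, needed for attachment of the pharynx. It had 14422, 3427 and 4603 CPM at 180 min and 2670, 2217 and 1799 CPM at 120 min. The first 180 min library was well above the other two. Its log2 fold change was 1.75 ± 0.47 (edgeR adjusted p 0.0118), and without 180 min replicate 1 it was 0.85 (0.333). Without 120 min replicate 2 or 3 the call was lost too (0.0556 and 0.0628), as it was in 4 of 6 fits computed anew (up to 0.383) and with no low-count filter (0.61). miR-52-5p was the only one of 8 tested arms of its family to pass the test, where 7.81% of all tested arms rose. The family's median log2 fold change was 0.91, or 0.74 without miR-55-5p, which had 2 reads in the 180 min libraries and none in the 120 min libraries. The family's share of reads was 0.932% ± 0.308 at 180 min, against 0.506% ± 0.0635 at 120 min (SD, n = 3 each).

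miR-79-5p had 229, 231 and 387 CPM at 180 min and 74.2, 30.1 and 0 CPM at 120 min. Its hairpin is known for a role of miR-79 in the skin, where it tunes proteoglycan synthesis and so the placement of neurons. miR-79-5p had a log2 fold change of 3.06 ± 0.93 (edgeR adjusted p 0.0257). Without 180 min replicate 3, 120 min replicate 2 or 120 min replicate 3 the call was lost (0.0628 to 0.0918), and without 120 min replicate 1 the log2 fold change was 4.46. It was lost as well in 4 of 6 fits computed anew (up to 0.168) and with no low-count filter (0.26). The other arm, miR-79-3p, had a log2 fold change of 2.00 ± 1.06 (edgeR adjusted p 0.295).

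miR-8199-3p, from chromosome II (annotated at 2136552 to 2137329, outside protein-coding genes), had 37, 20 and 25 reads at 180 min and none at 120 min. Against a floor of 3 reads over the 3 libraries it was at least 23.1-fold higher (edgeR adjusted p 0.0257). Leaving out any 1 library except 180 min replicate 3 ended the call (0.0525 to 0.11; up to 0.168 computed anew, lost in 5 of 6 fits), as did no low-count filter (0.0733).

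The mir-35 family is abundant in oocytes and early embryos and falls away as development goes on. miR-39-5p comes from its hairpin mir-39 (II, 11538089 to 11538175, in an intron of Y62F5A.9 on the opposite strand). This arm had 1533, 1095 and 3713 CPM at 180 min, against 5192, 18555 and 10483 CPM at 120 min. All 180 min libraries were below all 120 min libraries, though the 120 min libraries differed widely. miR-39-5p fell with a log2 fold change of -2.43 ± 0.66 (edgeR adjusted p 0.0118), and of -3.03 with DESeq2 size factors. Without 180 min replicate 3 the value was -3.12, and the call was lost without 180 min replicate 1, 180 min replicate 2 or 120 min replicate 2 (0.0845 to 0.0918) and in 2 of 6 fits computed anew (up to 0.0883). The other arm of the hairpin, miR-39-3p, had 93 reads at 180 min and 19 at 120 min (log2 fold change 1.06, not called).

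miR-39-5p was the only one of 14 tested arms of the family to pass the test, against 1.56% of all tested arms that fell. The family's median log2 fold change was -0.60, with arms from -2.81 to 1.82. In 3 of the 14, miR-39-5p, miR-35-5p and miR-35-3p, all 180 min libraries lay below all 120 min libraries, against 4.69% of all tested arms. Among arms not called, miR-35-5p had 85.8, 0 and 172 CPM at 180 min and 430, 256 and 1188 CPM at 120 min (log2 fold change -2.81 ± 1.08, edgeR adjusted p 0.11), and was called with DESeq2 size factors (0.0398), with no low-count filter (0.0294) and in the fit of 6 libraries (0.00611). miR-36-3p, the arm with most reads, had 17971, 11799 and 35165 CPM at 180 min and 39548, 27436 and 30757 CPM at 120 min (log2 fold change -0.59 ± 0.47, edgeR adjusted p 0.513; called with DESeq2 size factors, 0.0398). The family took 1.97%, 2.71% and 4.76% of reads at 180 min and 4.56%, 7.70% and 7.68% at 120 min, so the highest 180 min library lay above the lowest 120 min library. Values stand side by side for the 2 loci of the family. The 12 tested arms of mir-35 to mir-41, which lie together on chromosome II (11537608 to 11538404), had a median log2 fold change of -0.64. Those of mir-42, further along the chromosome at 11889811 beside mir-43 and mir-44, were 1.82 ± 0.90 for miR-42-3p and 1.04 ± 0.67 for miR-42-5p (edgeR adjusted p 0.243 and 0.431). The difference between the loci was not tested, and the value of miR-42-3p was 0.66 without 180 min replicate 1.

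miR-789-3p, a name that fits 2 hairpins on chromosome IV (mir-789-1 at 16740693 to 16740789 and mir-789-2 at 17309307 to 17309403), had no read at 180 min and 8, 9 and 28 reads at 120 min. It was at least 17.8-fold lower (edgeR adjusted p 0.00319). The call was lost in the fit of 6 libraries (0.104). 2 arms with few reads came near the threshold. miR-75-5p had no read at 180 min and 18, 0 and 22 reads at 120 min (at least 15.8-fold lower, edgeR adjusted p 0.0592). miR-34-3p had 1 read at 180 min and 32 at 120 min, and after scaling its 120 min level was 37.9 times the 180 min level (95% interval from counting 6.34 to 1545; edgeR adjusted p 0.0847). Both were called with DESeq2 size factors (0.0398 each).

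**Figure D3:**
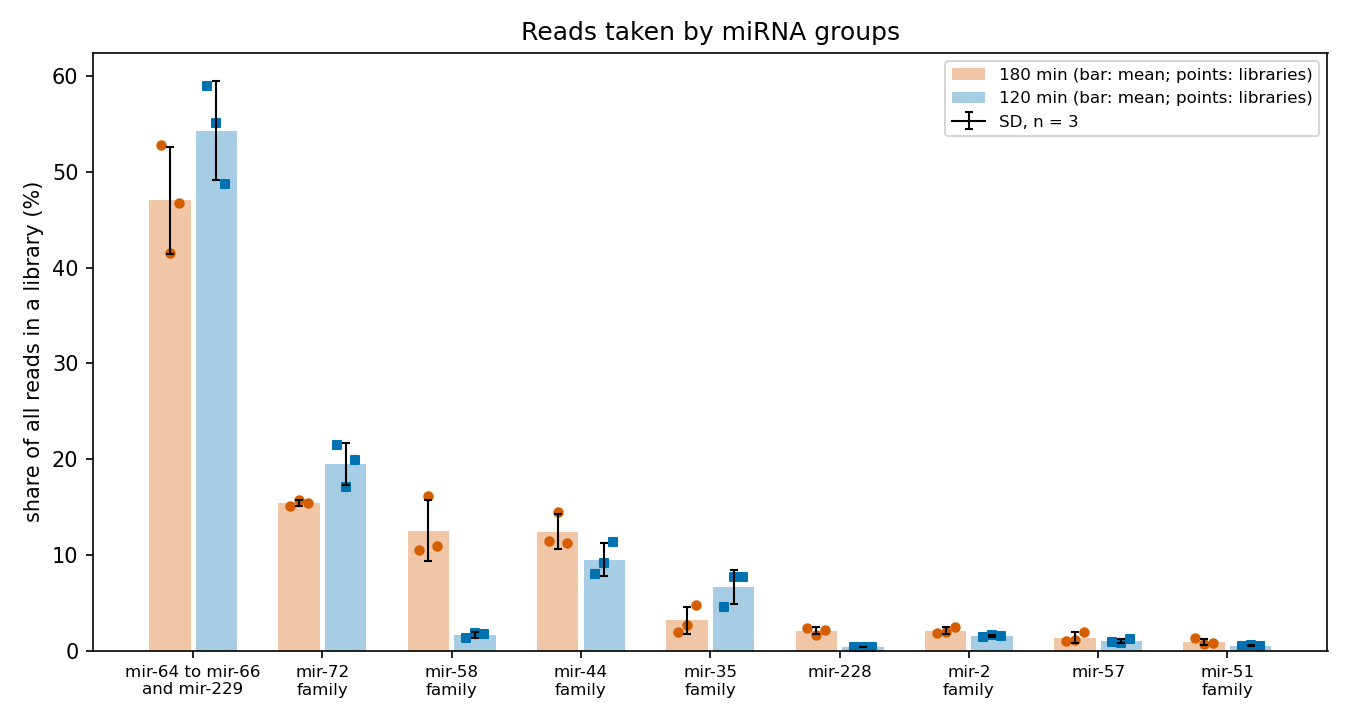
Percentage of all reads of a library taken by each miRNA group (both arms of every hairpin), with 180 min in orange left of 120 min in blue. Bars are means of 3 libraries, lines their SD and points the libraries. The mir-58 family and mir-228 stand higher at 180 min in every library, and the mir-72 family lower in every library, while the points of the mir-64, mir-44 and mir-35 groups overlap.

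The 10 arms with the highest mean CPM took 82.7% ± 2.24 of reads at 180 min, against 85.7% ± 2.78 at 120 min (SD, n = 3 each), and 2 of these 10 most abundant arms, miR-82-3p and miR-44-5p, passed the test. The cluster of mir-64, mir-65, mir-66 and mir-229, which sits within gcn-1 introns (III, 2172452 to 2173206), took 52.8%, 41.6% and 46.7% of reads at 180 min and 59.0%, 55.2% and 48.7% at 120 min, which overlap. None of its 8 tested arms passed the test, and their median log2 fold change was -0.29. miR-64-5p had 18.6% ± 1.93 of reads at 180 min, against 20.2% ± 1.39 at 120 min, and miR-65-5p 18.3% ± 4.22 at 180 min, against 16.1% ± 2.09 at 120 min (SD, n = 3 each). Their log2 fold changes of 0.09 ± 0.35 and 0.43 ± 0.39 (edgeR adjusted p 0.91 and 0.569) changed sign with DESeq2 size factors and with no low-count filter.

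Within the cluster miR-229-3p stood apart in its share, with 7.16% ± 0.511 of reads at 180 min, against 15.1% ± 2.73 at 120 min (SD, n = 3 each). In TMM-scaled CPM its libraries overlapped, at 95687, 38696 and 62376 CPM at 180 min and 188713, 102130 and 73455 CPM at 120 min. The arm did not pass the test (log2 fold change -0.89 ± 0.40, edgeR adjusted p 0.187), but was called lower by total counts (-1.07, 0.0109), by DESeq2 size factors (-1.35, 0.00672) and with no low-count filter (-1.60, 0.0456).

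The mir-72 family, relatives of miR-31, took 15.1%, 15.7% and 15.4% of reads at 180 min and 21.5%, 17.1% and 19.9% at 120 min, lower in every 180 min library. The shares of a library sum to 100%, and in the same libraries the mir-58 family share was higher at 180 min; its part in the lower mir-72 share was not tested. None of the 6 tested arms passed the test. miR-72-5p had a log2 fold change of -0.18 ± 0.36 (edgeR adjusted p 0.855). miR-73-3p had one of 0.39 ± 0.43 (0.691). miR-74-5p had 11491, 9752 and 16417 CPM at 180 min and 32957, 24522 and 18318 CPM at 120 min, with no overlap (log2 fold change -1.01 ± 0.39, edgeR adjusted p 0.11). It was called lower by total counts (-1.14, 0.0109), by DESeq2 size factors (-1.44, 0.00135) and with the replicate block (-1.03, 0.0278). The other 2 of the 10 most abundant arms did not pass either. For miR-61-3p the log2 fold change was -0.39 ± 0.36 (0.591), but with DESeq2 size factors it was called lower (-0.85, 0.0392). miR-235-3p, a relative of miR-92, had -0.86 ± 0.68 (0.513), with libraries that overlap.

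Other groups gave no call. Of the mir-2 family, 6 arms were tested with a median log2 fold change of 0.55, led in reads by miR-43-3p (0.82 ± 0.42, edgeR adjusted p 0.276). The family's share was 2.08% ± 0.350 at 180 min, against 1.51% ± 0.0854 at 120 min, higher in every 180 min library (SD, n = 3 each). miR-57-3p, of the miR-10 family and expressed in posterior cells of the embryo, had 12149, 6315 and 17855 CPM at 180 min and 9231, 5255 and 7343 CPM at 120 min (log2 fold change 0.73 ± 0.37, edgeR adjusted p 0.243). miR-1-5p, an arm of the muscle hairpin mir-1, had 650, 363 and 198 CPM at 180 min and 237, 105 and 80.7 CPM at 120 min (1.51 ± 0.66, 0.185). The other arm, miR-1-3p, took 2.45%, 4.35% and 0% of the hairpin's reads at 180 min and none at 120 min, and was not called. Of the mir-49 and mir-83 pair, relatives of miR-29, the 2 arms with reads had log2 fold changes of 1.57 and 1.79 and did not pass. Of the heterochronic lin-4 and let-7 families, which time larval development, 3 arms were tested and none passed; miR-48-5p had a log2 fold change of 0.94 ± 1.02 (edgeR adjusted p 0.691). The tested arm of the mirtron list, miR-1018, had a value of -0.05. The annotation used here places its hairpin outside protein-coding genes. The arms miR-50-3p and miR-50-5p had -0.83 and 0.46. Of the somatic gonad list, miR-240-5p had -1.65 and miR-246-5p 2.60, and none of these was called. None of the 5 tested arms of muscle, neuronal and intestinal miRNAs passed either, 1 of them, miR-124-5p, without a read; intestinal miR-60-3p had 932, 292 and 471 CPM at 180 min, against 493, 366 and 575 CPM at 120 min, which overlap.

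**Figure D4:**
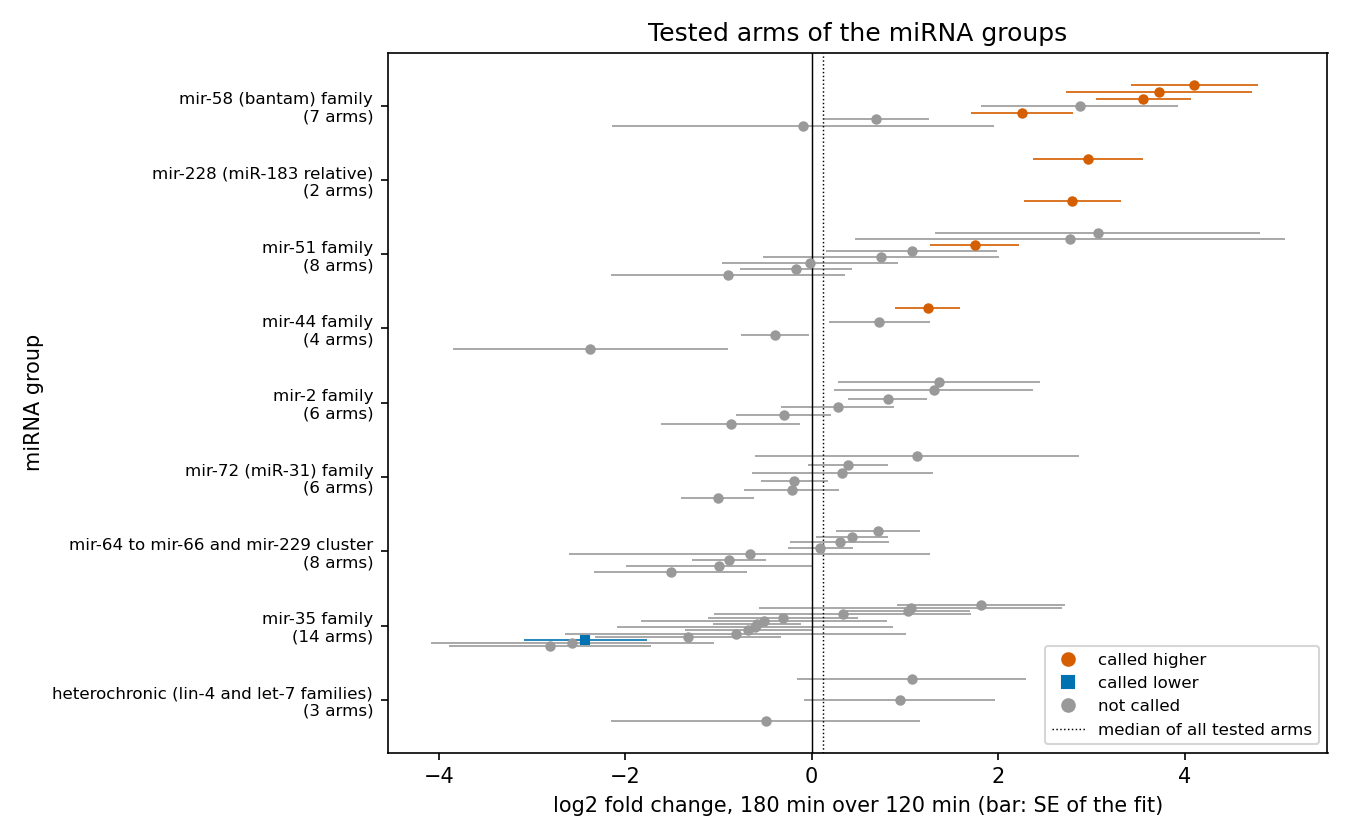
Fitted log2 fold change of 180 min over 120 min (horizontal axis) with its SE for every tested arm with reads, by miRNA group (vertical axis). Orange points were called higher, the blue square (miR-39-5p) lower and grey points were not called. The dotted line is the median of all tested arms at 0.13. Arms of the mir-58 family and mir-228 lie to its right except miR-58b-5p, and those of the other groups lie on both sides.

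In 35 hairpins the 5p and the 3p arm were both tested and had reads. Their fold changes had the same sign in 22. Both arms were called in mir-81 and mir-228, and 1 arm in another 5 hairpins. The 3p share of mir-228 reads was 4.85% ± 0.138 at 180 min, against 4.35% ± 0.205 at 120 min, and that of mir-81 98.2% ± 0.129 at 180 min, against 97.9% ± 2.87 at 120 min (SD, n = 3 each). The 3p share did not overlap between the stages in 8 of the 33 hairpins with reads in every library (24.2%), higher at 180 min in 6 (mir-228, mir-35, mir-39, mir-58a, mir-61 and mir-8199) and lower in mir-64 and mir-66. Some of these differences were small or rest on few reads. In mir-61 the share was 99.88% to 100% at 180 min and 99.79% to 99.87% at 120 min. In mir-39 it was 1.32% to 7.01% and 0% to 0.511%, with 19 reads of miR-39-3p at 120 min. In mir-58a the 3p arm took 52.0%, 68.3% and 56.4% of the hairpin's reads at 180 min and 37.9%, 19.2% and 47.5% at 120 min. With 3 libraries against 3 an exact permutation test cannot give a two-sided p under 0.1, so these shares were not tested. They also rest on the table's assignment of reads to arms, and how that was made is not given.

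The preceding interval, from 60 to 120 min, also lasts 60 min. A test of the difference between the 2 changes (edgeR, over 128 arms) asked which arms moved differently in them, and called 3 arms (2.34%; 19 at an unadjusted p under 0.05): miR-82-3p, miR-81-3p and miR-228-5p. The 120 min libraries enter both changes, so these calls are not separate from the calls between 180 and 120 min. The number of arms called by the test of the difference was 1 without 120 min replicate 1. It was 6 without 60 min replicate 1 and 5 without 60 min replicate 3. Over the times 60, 120, 180 and 225 min miR-82-3p averaged 14547 ± 12264, 5963 ± 1994, 70227 ± 15781 and 100029 ± 24943 CPM (SD, n = 3 each). miR-81-3p averaged 4601 ± 6364, 1346 ± 477, 23189 ± 5353 and 39358 ± 14301 CPM at the same times, and miR-228-5p 4378 ± 4080, 2624 ± 738, 18250.5 ± 9195 and 18102 ± 4867 CPM. All 3 were highest at 60 min in replicate 3, which held 2501 reads of miR-81-3p while replicates 1 and 2 held 97 and 75. As a share of reads, the arms of mir-228 together averaged 0.276% at 60 min and 0.356% at 120 min. The direction of the mir-228 change from 60 to 120 min therefore depended on scaling. The change from 120 to 180 min exceeded that from 60 to 120 min by 4.84 ± 0.90 on the log2 scale for miR-82-3p (edgeR adjusted p 0.000805), and by 3.93 without 60 min replicate 3 (0.00031) and 5.43 without 120 min replicate 1 (0.00392). For miR-81-3p the difference was 5.88 ± 1.21 (0.00237), and 3.57 without 60 min replicate 3 (0.000683). It lost its call without 120 min replicate 1 (0.0542). For miR-228-5p it was 3.54 ± 0.93 (0.0244), and 2.48 without 60 min replicate 3 (0.0458). That call was lost without 180 min replicate 1 (0.103), without any 1 of the 120 min libraries (0.0542 to 0.233), with DESeq2 size factors (2.08, 0.0786), with no low-count filter (2.03, 0.40) and without the 5 most abundant arms (2.92, 0.0883).

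For the other arms called between 180 and 120 min, the 2 changes did not differ past the threshold. miR-58a-3p had a difference of 2.60 ± 0.97 (edgeR adjusted p 0.203), miR-52-5p of 0.88 ± 0.82 (0.694) and miR-44-5p of 0.38 ± 0.59 (0.818). miR-44-5p averaged 18316, 33413, 79147 and 65107 CPM from 60 to 225 min, and miR-39-5p 19716, 11410, 2114 and 1306 CPM. Over the 7 steps between neighbouring times the same fit called 2 to 14 arms, and the step to 225 min 2. These counts were not tested against each other, and depth differs between stages.

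**Figure D5:**
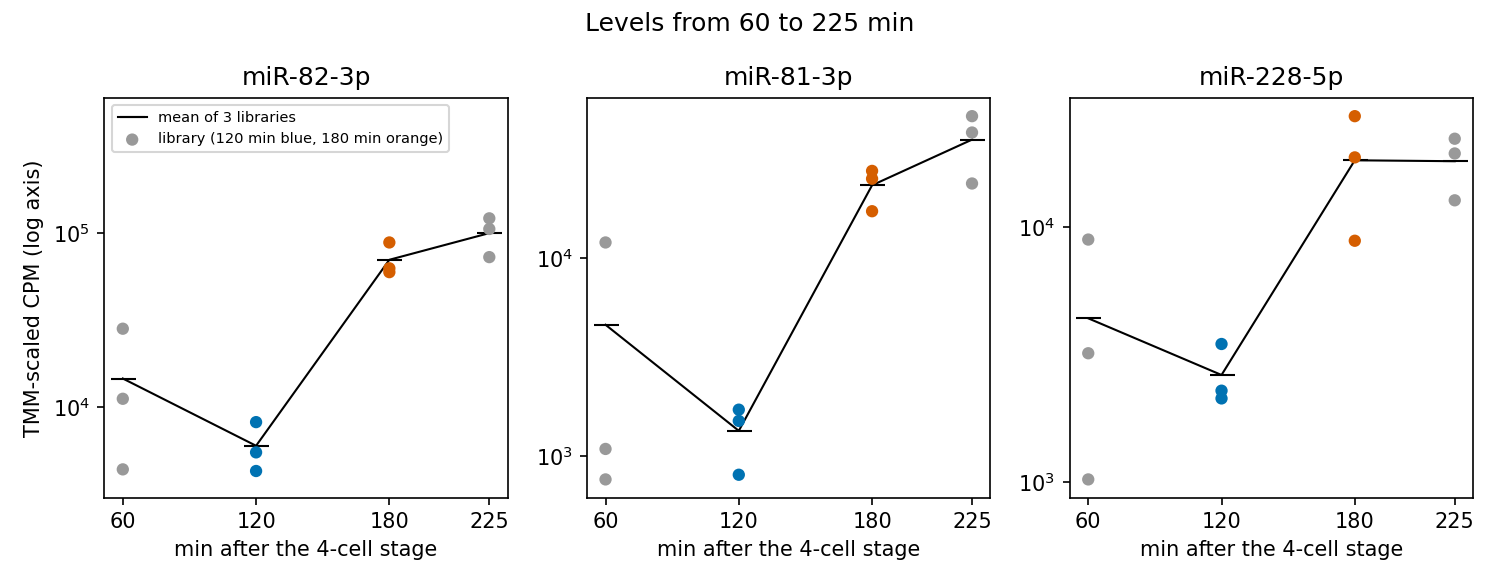
TMM-scaled CPM (log axis) of miR-82-3p, miR-81-3p and miR-228-5p at 60, 120, 180 and 225 min after the 4-cell stage. Points are libraries, in blue at 120 min and orange at 180 min, and the line joins the means of 3 libraries. In each panel all 180 min libraries lie above all 120 min libraries, and 1 library at 60 min lies well above the other two.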

How the data were processed

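The deposited values are raw read counts per mature miRNA arm, not normalized, with 1 column per library in a single table of the authors. Bowtie and HTSeq are named in the submitters' processing notes. Not given in the sources used here are versions, genome build, annotation, strand use and how reads that map more than once were treated. Per the labels' protocols, libraries were made from TRIzol RNA with a TruSeq small RNA kit and PCR, with no molecular identifiers described, so counting intervals and floors cover counting error only. Mature sequences were not used here. Hairpin positions come from the Ensembl annotation of WBcel235, matched by name.

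The test was edgeR 4.0.16 in R 4.3.3. There, filterByExpr (minimum count 10, stage as group) kept 128 arms, TMM factors scaled libraries, and all 24 libraries entered 1 robust quasi-likelihood fit with stage as factor (common biological coefficient of variation 0.706). SE is the log2 fold change divided by the square root of F. Alternatives were DESeq2 1.42.0 (size factors or Wald test), total counts, no filter, a replicate block, only the stages compared, no top 5 arms, and each library left out. The procedure was tested on simulated data.

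Named arms are the 12 largest called rises and falls without overlap, the 10 most abundant arms and tested arms of fixed hairpin lists, with a few arms near the threshold added after their values were seen. The comparison and lists were chosen with earlier results of these data known.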

Additional observations from a re-analysis of the deposited data

Results flagged for a closer look

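In 3 arms the change from 120 to 180 min differed from the change from 60 to 120 min by the edgeR test of the difference itself (adjusted over the 128 tested arms). The 120 min libraries enter both changes. The difference was 4.84 ± 0.90 on the log2 scale for miR-82-3p (adjusted p 0.000805), 5.88 ± 1.21 for miR-81-3p (0.00237) and 3.54 ± 0.93 for miR-228-5p (0.0244). In all 3 arms 60 min replicate 3 was the highest 60 min library, and without it the differences were 3.93, 3.57 and 2.48. They were 3.54, 4.20 and 2.08 with DESeq2 size factors, and 3.70, 4.26 and 2.22 with total counts. With DESeq2 size factors miR-228-5p was not called (0.0786). The call of miR-81-3p was lost without 120 min replicate 1 (0.0542), and that of miR-228-5p without 180 min replicate 1 or any 1 of the 120 min libraries (0.0542 to 0.233).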

How the results depend on the processing

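The 10 rises at 180 min were 3 with no low-count filter and 4 to 9 without any 1 library. The 2 falls were 9 with DESeq2 size factors, 10 with the DESeq2 Wald test, 4 with total counts, 7 with no low-count filter and 1 to 4 without any 1 library. The 3 arms whose changes differed between the intervals were 6 with DESeq2 size factors, 14 with the DESeq2 Wald test, 7 with total counts and 1 to 11 without any 1 library. With the replicate block, the counts were 10 rises, 3 falls (miR-74-5p joined) and 4 arms that differed between the intervals. Same-numbered libraries of the 2 stages had correlations of 0.066 to 0.263 in their deviations from the stage means. Differently numbered ones had -0.228 to 0.0669. The labels state no pairing, and the main fit held no replicate term. Whether same-numbered libraries share a batch was not tested. Fold changes near 0 changed sign. miR-64-5p had -0.39 with DESeq2 size factors or the Wald test, -0.12 with total counts, -0.56 with no filter and -0.65 to 0.46 without any 1 library. miR-65-5p had -0.059 with DESeq2 size factors or the Wald test, -0.32 with no filter and -0.38 to 0.84 without any 1 library, and miR-73-3p had -0.31 with no filter. Without any 1 library, miR-72-5p had -0.89 to 0.23, miR-73-3p -0.32 to 0.99 and miR-58a-5p -0.20 to 1.13. The cause of these differences was not tested. In the 103144 and 130301 reads of replicate 2, 3 reads stand for 16.5 CPM at 180 min and 15.0 CPM at 120 min, so absence of arms below these levels was not detectable there.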
